A study of Mus musculus with 15 samples.

Results

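The mitochondrial ribosomal protein genes of mouse myeloid cells were examined, taken as every gene that the array annotation lists alone on a probe set under a symbol of Mrpl or Mrps and a number. They numbered 71 of the 22180 genes with such a probe set, 43 of them named for the large subunit (Mrpl) and 28 for the small subunit (Mrps). All 71 were among the 14822 genes that passed the filter on dim signals and were tested. A further 7 genes of the family (Mrpl30, Mrpl33, Mrpl41, Mrpl43, Mrpl44, Mrpl53 and Mrps6) have only probe sets shared with other genes and were not included. For the 9 members with several probe sets, the brightest on average over the 15 arrays stood for the gene.

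RNA of 15 samples was measured on single-colour Affymetrix arrays, 1 array per sample and 3 arrays per group. MDSC arrays hold Ly6C+CD11b+ myeloid-derived suppressor cells, grown from C57Bl/6 bone marrow with G-CSF, GM-CSF and IL-13. GFE arrays hold spleen cells of G-CSF-treated C57Bl/6 mice that were depleted of CD4, CD8, Ly6G, B220 and Ter119 positive cells, sorted as CD11b+CD34+ and then kept for 3 days in StemSpan medium with Flt3 ligand and SCF. GFK arrays hold uncultured cells of the same sort from G-CSF-treated mice labelled iNOS knockout. RB and GFW arrays both hold uncultured cells of that sort from G-CSF-treated C57Bl/6 mice and differ only in their title codes. All groups but MDSC thus share the G-CSF treatment of the donor mice, and MDSC cells met G-CSF in the dish. The labels do not say whether the 3 samples of a group came from separate mice or cultures, so p-values measure the spread between samples, which may be technical.

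Mitochondria carry their own ribosome, which translates the messages of the mitochondrial genome, nearly all of them for membrane subunits of the respiratory chain and the ATP synthase. Its RNAs are made in the mitochondrion, whereas all of its proteins are encoded in the nucleus, made on cytosolic ribosomes and imported. The large subunit joins amino acids into chains and passes them out through a tunnel at the inner membrane, and the small subunit reads the message. Some of the proteins descend from bacterial ribosomal proteins, and others were added during the evolution of mitochondria.

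The values are log2 signals, and a difference of 1 is a doubling. Array medians lay between 5.52 and 5.72. The upper quartile of an array lay between 7.22 and 7.34 on MDSC, GFE and RB arrays and between 7.05 and 7.10 on GFK and GFW arrays. The RNA of the sort's markers did not follow the sort in every group. The sort acts on proteins, which the arrays do not measure, and GFE cells were measured after culture. The mean signal of Ly6g, the gene of a granulocyte marker the sort removes, was 5.80 on MDSC, 4.22 on GFE, 12.08 on GFK, 6.28 on RB and 12.19 on GFW arrays, so it was high on GFK and GFW arrays. The mean signal of Cd34 was 6.88 on MDSC, 11.28 on GFE, 7.27 on GFK, 5.92 on RB and 7.19 on GFW arrays. Nos2, the gene of iNOS, read 8.84, 8.91 and 8.92 on the arrays labelled knockout, against 8.09, 8.32 and 8.43 on GFW arrays, so it was not lower there. Whether these probes lie in a deleted part is not given in the sources used here. In bulk RNA, fewer cells of a type and less RNA per cell cannot be told apart, which applies to every difference given here.

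As a family, the genes stood highest in MDSC, next in cultured GFE cells, then in RB, and lowest in GFK and GFW cells. Each gene was set against its own mean over the 15 arrays, and the median over the 71 members was taken on each array. It was 0.82, 0.73 and 0.77 on MDSC arrays, 0.47, 0.56 and 0.40 on GFE arrays, −0.68, −0.74 and −0.56 on GFK arrays, 0.03, 0.08 and −0.14 on RB arrays, and −0.65, −0.57 and −0.55 on GFW arrays. No array of MDSC, GFE or RB lay within the range of another group, while GFK and GFW arrays overlapped. The same median over all genes tested stayed between −0.07 and 0.02 on every array. Of the 71 members, 50 had their highest group mean in MDSC, 14 in GFE, 5 in RB and 2 in GFW, and 37 had their lowest in GFK and 24 in GFW. The heat map of the members shows this order for both subunits, together with the few genes that depart from it.

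**Figure D1:**
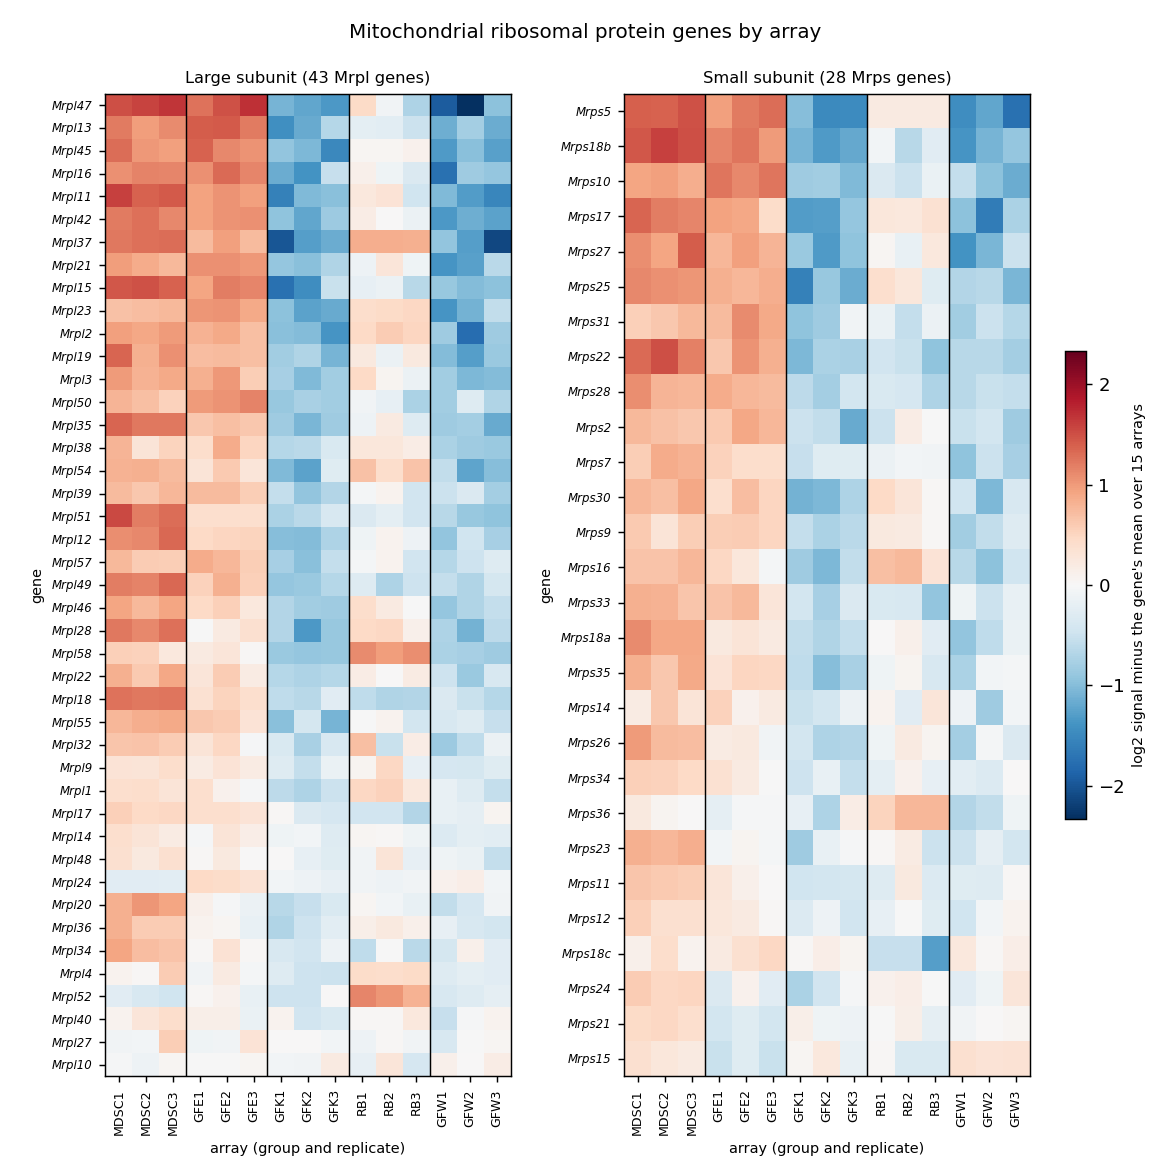
Log2 signal of the 71 members on the 15 arrays, each gene minus its own mean over all arrays (colour), with arrays in columns and the 43 Mrpl and 28 Mrps genes in rows, ordered by the GFE minus GFW difference. Most genes are high on MDSC and GFE arrays and low on GFK and GFW arrays.

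Cultured GFE cells were compared with GFW cells, uncultured cells whose titles share a prefix with theirs. Of the 71 members, 57 were higher in GFE and 2 lower at an adjusted p under 0.05 (limma, Benjamini-Hochberg over all genes tested), and 12 were not called. Among all genes tested, 35.1% were called higher and 31.9% lower. The median difference was 1.12, a 2.17-fold higher signal, against −0.06 over all genes tested. By size, 48 members were called higher by at least 1.5-fold and 37 by at least 2-fold, counted from the log2 difference. The 48 include Mrps14, which was dim in GFW, so that its difference supports only at least 1.10-fold. Mrpl45 and Mrps27 were dim in GFW too, but their bounds of 4.20-fold and 2.36-fold meet both sizes. All arrays of GFE lay above all of GFW for 57 members and below for 2, against 37.1% of all genes tested in either direction. The scaling of the arrays moves the balance of all calls: 52.3% of called genes were higher as deposited, 63.8% with each array's median subtracted, and 33.6% with the median of the genes tested subtracted. With the last of them 45 members were called higher and 4 lower, against 26.3% and 51.9% of all genes tested. These scalings shift all genes of an array alike, so they leave the distance of the members' median from that of all genes at 1.18 by construction. Under full quantile normalization, which can change it, the distance was 0.98, with 51 members called higher and 2 lower.

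Mrpl47, the counterpart of bacterial L29 at the rim of the exit tunnel, differed most. Its signal was 8.75, 8.96 and 9.18 on GFE arrays, against 5.54, 5.15 and 6.52 on GFW arrays, a difference of 3.22 (SE 0.29, 9.35-fold, adjusted p = 8.75e-08 by limma). The groups were far apart, although GFW arrays spread over more than a log2 unit, and a weaker second probe set of the gene gave a difference of 1.61. Mrps5, a small subunit protein with a bacterial counterpart, had 8.16, 8.40 and 8.51 on GFE arrays, against 5.74, 5.98 and 5.46 on GFW arrays, a difference of 2.63 (SE 0.15, 6.18-fold, adjusted p = 3.22e-10), and its second probe set gave 1.48. For Mrpl47 and Mrps5 the size of the difference thus depends on the probe set, and its direction does not.

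Mrpl13, another large subunit protein of bacterial descent, had 9.87, 9.88 and 9.68 on GFE arrays, against 7.33, 7.67 and 7.30 on GFW arrays, a 5.20-fold higher signal. Mrpl45, which sits at the tunnel exit facing the inner membrane, read 7.81, 7.55 and 7.48 on GFE arrays, against 5.11, 5.46 and 5.16 on GFW arrays. The GFW level is under the 40th percentile of those arrays, so the difference is given as at least 4.20-fold. Mrpl42, found in mitochondrial and not in bacterial ribosomes, had 10.83, 10.93 and 10.97 on GFE arrays, against 8.55, 8.76 and 8.64 on GFW arrays, a difference of 2.26 (SE 0.12, adjusted p = 1.17e-10) with tight replicates on both sides. Mrpl16, Mrpl11 and Mrpl37 were 5.04-fold, 4.80-fold and 4.76-fold higher in GFE.

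Only Mrps15 and Mrps21 were called lower in GFE than in GFW as deposited. Mrps15, whose bacterial counterpart binds the small subunit RNA early in assembly, had 8.76, 9.01 and 8.77 on GFE arrays, against 9.65, 9.61 and 9.62 on GFW arrays, a difference of −0.78 (SE 0.13, adjusted p = 7.97e-05). Mrps21 had 8.64, 8.78 and 8.64 on GFE arrays, against 8.99, 9.09 and 9.12 on GFW arrays, a difference of −0.38 (adjusted p = 0.00677). With each array's median subtracted, Mrps21 lost its call (adjusted p = 0.0768), and with the median of the genes tested subtracted, Mrpl10 and Mrps24 were called lower as well.

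The plot of member values by array shows 12 of these genes, chosen for their size of change, their role or their departure from the family.

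**Figure D2:**
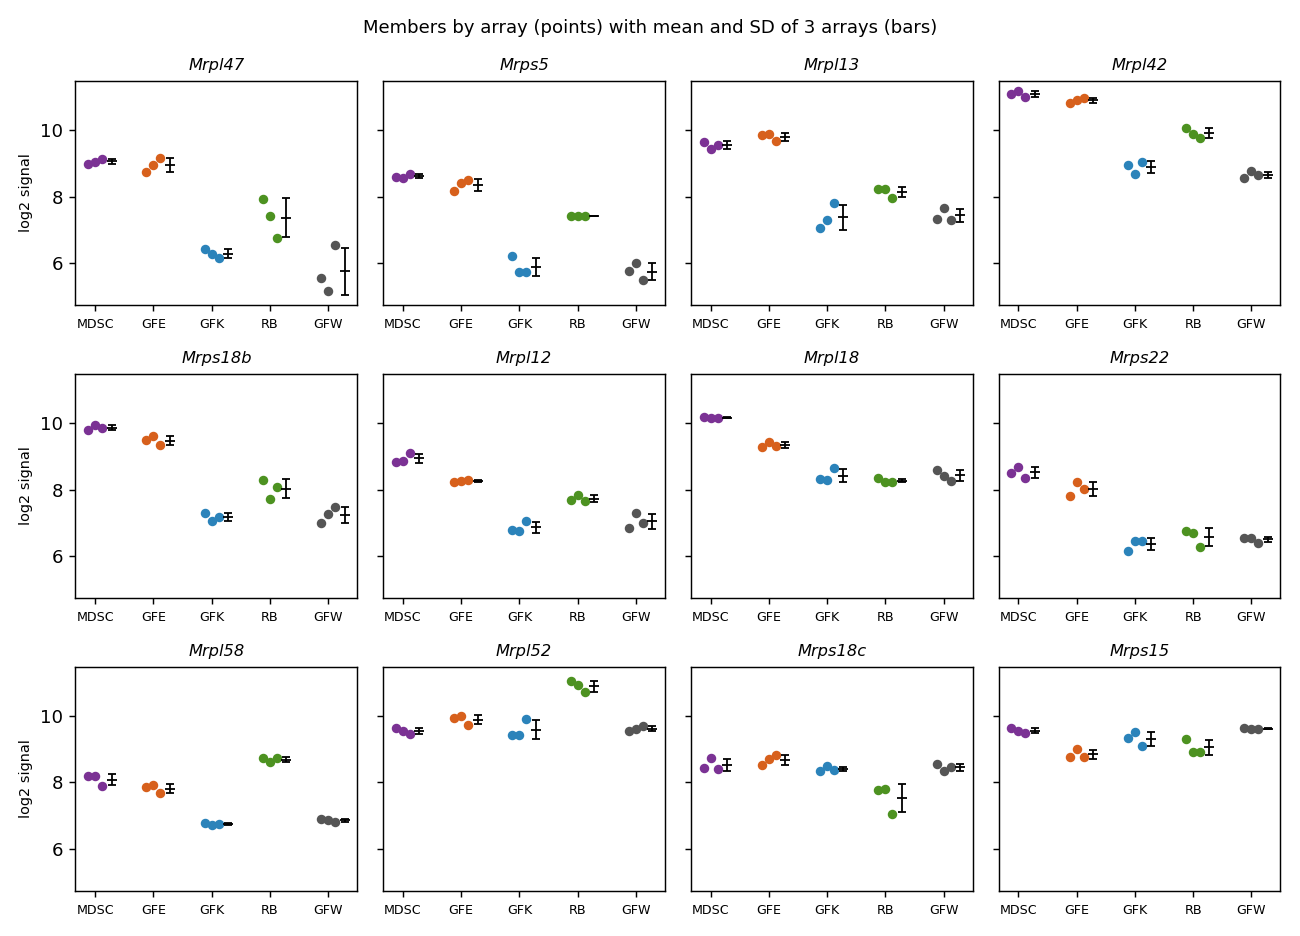
Log2 signal of 12 members in the 5 groups: points are arrays, bars the mean and SD of 3 arrays. Mrpl47, Mrps5, Mrpl13, Mrpl42, Mrps18b and Mrpl12 are high in MDSC and GFE, Mrpl52 and Mrpl58 are highest in RB, and Mrps15 has its lowest mean in GFE.

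Other genes moved in the same comparison. All 6 measured genes of a neutrophil list were lower in GFE, with a median signal over the list of 5.02 to 5.29 on GFE arrays, against 12.12 to 12.14 on GFW arrays, and 3 of them (Ly6g, Retnlg and Camp) were under the 40th percentile in GFE. Of 6 monocyte genes 5 were lower in GFE and 1 higher, and all 3 measured B cell genes were lower. Of 6 progenitor genes 5 were higher in GFE (list median 9.34 to 9.62 on GFE arrays, against 6.69 to 6.88 on GFW arrays). The other, Kit, was lower, with a mean of 10.85 on GFE arrays against 11.43 on GFW arrays. All 6 measured genes of a cell-cycle list were higher (9.54 to 9.67 on GFE arrays, against 7.49 to 7.57 on GFW arrays). Their part in the difference of the members was not tested.

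MDSC were compared with RB cells, a pair that shares no array with GFE and GFW. Of the members, 52 were higher in MDSC, 3 lower and 16 not called, against 27.4% of all genes tested called higher and 20.7% lower. The median difference was 0.84, a 1.79-fold higher signal, against 0.04 over all genes tested. By size, 45 members were called higher by at least 1.5-fold and 23 by at least 2-fold, and differences ran between −1.36 and 1.96. All MDSC arrays lay above all RB arrays for 57 members and below for 4, against 31.3% and 24.1% of all genes tested. Of all called genes, 56.9% were higher as deposited, 63.2% with each array's median subtracted and 45.2% with the median of the genes tested subtracted, where 49 members were called higher and 4 lower. Under that last scaling 22.3% of all genes tested were called higher and 27.0% lower. MDSC and RB differ in title prefix, so prefix and group cannot be told apart.

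Mrps22, a small subunit protein with no bacterial counterpart mutated in an inherited mitochondrial disease of people, differed most. It had 8.51, 8.69 and 8.35 on MDSC arrays, against 6.75, 6.68 and 6.25 on RB arrays, a difference of 1.96 (SE 0.15, 3.89-fold, adjusted p = 2.44e-08 by limma). Mrpl18, a large subunit protein of bacterial descent, had 10.19, 10.16 and 10.17 on MDSC arrays, against 8.33, 8.23 and 8.24 on RB arrays, a difference of 1.90 (SE 0.12, adjusted p = 1.89e-09). For both genes the MDSC arrays stood alone at the top, above GFE arrays too (7.81, 8.24 and 8.02 for Mrps22; 9.29, 9.45 and 9.31 for Mrpl18), and RB arrays lay near GFW arrays (6.54, 6.55 and 6.39 for Mrps22; 8.60, 8.42 and 8.26 for Mrpl18). Mrps18b, Mrpl15, Mrpl49, Mrpl47 and Mrpl51 followed with differences of 1.83, 1.77, 1.72, 1.70 and 1.68. Second probe sets gave 1.47 for Mrps18b and 1.19 for Mrpl47.

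Mrpl52, Mrpl58 and Mrps36 were lower in MDSC than in RB. Mrpl52, a large subunit protein without a bacterial counterpart, had 9.65, 9.54 and 9.46 on MDSC arrays, against 11.06, 10.95 and 10.73 on RB arrays, a difference of −1.36 (SE 0.14, adjusted p = 5.71e-07). Mrpl58, also known as ICT1, is a peptidyl-tRNA hydrolase that became part of the large subunit and can release chains from stalled ribosomes. It had 8.18, 8.18 and 7.88 on MDSC arrays, against 8.73, 8.61 and 8.73 on RB arrays, a difference of −0.60 (SE 0.11, adjusted p = 0.000185). RB was the highest of the 5 groups for both genes and no RB array overlapped an array of another group.

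Mrps36 carries the name of a ribosomal protein but is now known as a component of the 2-oxoglutarate dehydrogenase complex. It was dim, with 5.48, 5.31 and 5.25 on MDSC arrays, against 5.76, 6.02 and 6.01 on RB arrays, at least 1.43-fold lower in MDSC (adjusted p = 0.0191), and it lost its call in 4 of the 6 fits that leave out an array (MDSC replicate 2 or 3, RB replicate 2 or 3; adjusted p 0.0518 to 0.0645). Beside these members, 5 of 6 monocyte genes were lower in MDSC (list median 7.29 to 7.62 on MDSC arrays, against 11.68 to 11.71 on RB arrays), and all 6 cell-cycle genes were higher (10.21 to 10.41 on MDSC arrays, against 7.16 to 7.61 on RB arrays). Their part in the differences was not tested.

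GFE minus GFW and MDSC minus RB use separate arrays. Of the members, 44 were higher in both, which is 77.2% of the 57 called higher in GFE and 84.6% of the 52 called higher in MDSC. Over all genes tested, 2658 were higher in both, which is 51.1% of those called higher in GFE and 65.5% of those called higher in MDSC. Across genes, which are not independent replicates, the differences had a Pearson r of 0.504 over the 71 members and 0.42 over all genes tested. Mrpl58, Mrps15 and Mrps21 were called in opposite directions. Mrpl58 was higher in GFE than in GFW by 0.96 and lower in MDSC than in RB, whereas Mrps15 and Mrps21 were lower in GFE than in GFW and higher in MDSC than in RB by 0.51 and 0.47. Mrpl10, Mrpl27, Mrpl4 and Mrpl40 were called in neither comparison. The scatter of both differences shows the members mainly where both are positive.

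**Figure D3:**
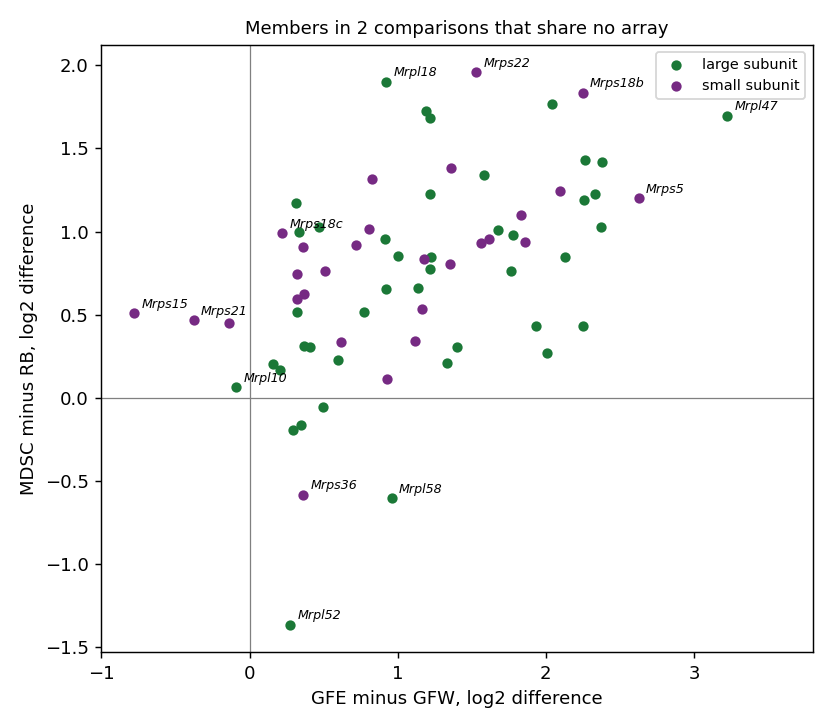
GFE minus GFW difference (horizontal axis, log2) against MDSC minus RB difference (vertical axis, log2) for the 71 members, 1 point per gene, by subunit, with named genes labelled. Of them, 44 were called higher in both comparisons, and Mrpl58, Mrps15 and Mrps21 in opposite directions.

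MDSC stood further from GFW than from RB. Against GFW, 65 members were higher in MDSC and 1 lower, with a median difference of 1.30 (2.47-fold), where 32.3% of all genes tested were called higher and 30.0% lower. All MDSC arrays lay above all GFW arrays for 65 members and below for 1, against 34.4% and 36.3% of all genes tested. Mrpl47 differed most, with 8.99, 9.05 and 9.15 on MDSC arrays against the GFW values given above, a difference of 3.32 (adjusted p = 7.3e-08 by limma). Mrps5 followed with 2.89, Mrpl11 with 2.75, Mrpl37 with 2.71 and Mrps18b with 2.63. Second probe sets gave 1.73 for Mrpl47, 1.08 for Mrps5 and 2.44 for Mrps18b, so this order depends on the probe set. Mrpl24, counterpart of a bacterial protein beside the tunnel exit, was the member called lower. It had 9.58, 9.57 and 9.58 on MDSC arrays, against 9.94, 9.99 and 9.77 on GFW arrays, a difference of −0.33 (adjusted p = 0.0065) that lost its call with each array's median subtracted (adjusted p = 0.0896). Of all called genes, 51.8% were higher as deposited, 63.2% with each array's median subtracted and 33.5% with the median of the genes tested subtracted, where 59 members were called higher and 4 lower. Under that last scaling 25.2% of all genes tested were called higher and 49.9% lower. Title prefix and group cannot be told apart in this comparison or in that of RB with GFW. Of the neutrophil list, 4 of 6 genes were lower in MDSC than in GFW and 2 higher (list median 7.10 to 7.31 on MDSC arrays, against 12.12 to 12.14 on GFW arrays), and all 6 cell-cycle genes were higher. Their part in the difference was not tested.

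RB and GFW carry the same sample labels, and 43 members were higher in RB, 3 lower and 25 not called, against 25.8% of all genes tested called higher and 26.5% lower. The median difference was 0.56, a 1.47-fold higher signal. All RB arrays lay above all GFW arrays for 39 members and below for 4, against 26.4% and 28.8% of all genes tested. Mrpl37, a large subunit protein of mitochondria, had 8.34, 8.34 and 8.32 on RB arrays, against 6.57, 6.22 and 5.36 on GFW arrays, a difference of 2.28 (SE 0.24, adjusted p = 1.45e-06 by limma). Mrpl58 was higher in RB by 1.83 (adjusted p = 1.56e-09), with 6.89, 6.86 and 6.82 on GFW arrays, and Mrpl52 by 1.29 (adjusted p = 1.52e-06), with 9.54, 9.62 and 9.71 on GFW arrays. Mrps18c, Mrps15 and Mrpl17 were lower in RB, with differences of −0.92, −0.57 and −0.43, and without RB replicate 2 the number called lower was 5, with Mrpl10 and Mrpl34 in addition. Of all called genes, 49.4% were higher as deposited, 56.2% with each array's median subtracted and 35.5% with the median of the genes tested subtracted, where 38 members were called higher and 7 lower. Under that last scaling 20.9% of all genes tested were called higher and 38.0% lower. All 6 monocyte genes were higher in RB than in GFW (list median 11.68 to 11.71 on RB arrays, against 7.03 to 7.32 on GFW arrays) and of the 6 neutrophil genes 4 were lower and 1 higher. Of the 6 measured cell-cycle genes only 2 were higher in RB and 1 was lower (list median 7.16 to 7.61 on RB arrays, against 7.49 to 7.57 on GFW arrays). Of the 6 progenitor genes 5 were lower and 0 higher, and all 3 measured B cell genes were lower. Their part in the difference was not tested.

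MDSC minus RB, MDSC minus GFW and RB minus GFW share arrays with each other, and the last pair shares GFW arrays with GFE minus GFW. Mrpl10 and Mrpl27 were called higher in none of these 4 comparisons. Mrpl10 anchors the flexible stalk of the large subunit, and Mrpl27 is the counterpart of a bacterial protein near the peptidyl transferase centre. Mrpl27 had a narrow and low range, between 5.63 and 6.59 over all 15 arrays.

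In cells of mice labelled iNOS knockout, no member was called against GFW in either direction, where 1.30% of all genes tested were called higher and 0.317% lower. At an unadjusted p under 0.05, 6 members passed (8.45%), against 1747 of all genes tested (11.8%), and the smallest adjusted p among members was 0.199, for Mrps7. The median difference was −0.06, against −0.01 over all genes tested, and differences lay between −0.50 and 0.53. The groups did not overlap for 5 members, with Mrpl38 higher and Mrpl58, Mrpl24, Mrps11 and Mrps15 lower in GFK, against 8.26% of all genes tested higher and 7.91% lower without overlap. Mrps35, named after its values were seen, had 7.19, 6.78 and 7.02 on GFK arrays, against 7.04, 7.71 and 7.73 on GFW arrays. It was called lower only without GFW replicate 1 (−0.72, adjusted p = 0.029), and with that array its adjusted p was 0.223. Neutrophil list medians were close, with 11.97 to 12.07 on GFK arrays and 12.12 to 12.14 on GFW arrays, and 0 of 6 were called. Of the B cell, monocyte and progenitor lists 1 gene each was called higher in GFK and none lower. Cd79a of the B cell list averaged 7.62 ± 0.28 on GFK arrays and 6.04 ± 0.45 on GFW arrays, and Ace of the monocyte list 6.91 ± 0.06 on GFK arrays and 6.03 ± 0.18 on GFW arrays (SD, n = 3 each).

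**Figure D4:**
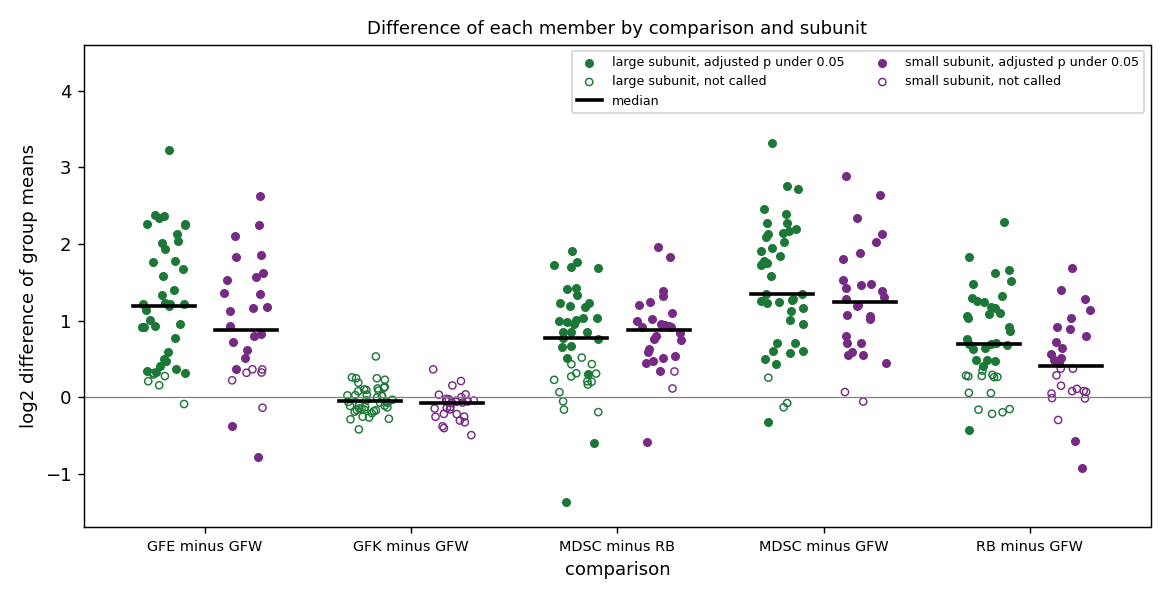
Log2 difference of each member in the 5 comparisons, by subunit (filled points, adjusted p under 0.05; open points, not called; black bars, medians). The medians lie above 0 in all comparisons but GFK minus GFW, where no point is filled.

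The subunits were compared within each array. The median of the Mrpl genes minus that of the Mrps genes, each gene set against its own mean over the arrays, averaged 0.05 ± 0.03 on MDSC, 0.03 ± 0.10 on GFE, −0.06 ± 0.08 on GFK, 0.04 ± 0.06 on RB and −0.16 ± 0.13 on GFW arrays (SD, n = 3 each). All 5 means lay between −0.16 and 0.05, while the median of the family differed by more than 1 log2 between MDSC and GFW arrays. The plot of differences by subunit shows the medians of both on the same side of 0 in each comparison. In GFE minus GFW, 37 of 43 Mrpl genes were higher and 0 lower (median 1.19), against 20 of 28 Mrps genes higher and 2 lower (median 0.88). In MDSC minus RB, 27 of 43 Mrpl genes were higher and 2 lower (median 0.78), against 25 of 28 Mrps genes higher and 1 lower (median 0.87). In RB minus GFW, 29 of 43 Mrpl genes were higher and 1 lower (median 0.69), against 14 of 28 Mrps genes higher and 2 lower (median 0.41). The shares of all genes tested called higher and lower were 35.1% and 31.9% in GFE minus GFW. They were 27.4% and 20.7% in MDSC minus RB, and 25.8% and 26.5% in RB minus GFW. No test between the subunits was made, since genes are not replicates.

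Symbols do not always match the place of a protein. Mrps18a and Mrps30 are found in the large subunit, and with them moved there and Mrps36 left out, the large subunit of 45 genes and the small subunit of 25 had medians of 1.17 and 0.92 in GFE minus GFW and of 0.78 and 0.91 in MDSC minus RB. By descent, the 45 members with a counterpart among bacterial ribosomal proteins had a median of 0.92 in GFE minus GFW, with 35 higher and 2 lower. The 26 without one, Mrps36 among them, had 1.20, with 22 higher and 0 lower. In MDSC minus RB the medians were 0.84 and 0.81. The 3 members called lower there are among the 26, but 1 of them is Mrps36, now known as part of another complex.

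Mrps18a, Mrps18b and Mrps18c descend from the same bacterial protein, and the first sits in the large subunit while the other two sit in the small one. Mrps18b differed most, with 9.79, 9.95 and 9.85 on MDSC arrays, 9.49, 9.60 and 9.34 on GFE arrays, 8.29, 7.71 and 8.09 on RB arrays, and 6.97, 7.26 and 7.46 on GFW arrays. It was higher in GFE than in GFW by 2.25 (adjusted p = 2.14e-09 by limma), and its second probe set gave 2.28. Mrps18a was higher by 0.80 in GFE than in GFW and by 1.01 in MDSC than in RB. Mrps18c differed by 0.22 between GFE and GFW (adjusted p = 0.254), was higher in MDSC than in RB by 0.99, and was lower in RB than in GFW (difference −0.92). Its RB values were 7.78, 7.79 and 7.05, against 8.56, 8.35 and 8.48 on GFW arrays. A dimmer second probe set of Mrps18c gave −0.02 for RB minus GFW and 0.25 for MDSC minus RB, so its differences rest on 1 probe set.

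Mrpl12 and Mrpl10 both belong to the stalk that recruits translation factors, and the protein of Mrpl12 has also been reported to bind the mitochondrial RNA polymerase. Mrpl12 had 8.85, 8.87 and 9.11 on MDSC arrays, 8.23, 8.26 and 8.29 on GFE arrays, 7.67, 7.84 and 7.64 on RB arrays, and 6.85, 7.29 and 6.98 on GFW arrays. It was higher in MDSC than in RB by 1.23 and in GFE than in GFW by 1.22, with no overlap between those groups, and a second probe set gave 1.43 and 1.91. Mrpl10 stayed between 8.38 and 9.05 on all 15 arrays and differed by −0.09 between GFE and GFW (adjusted p = 0.587) and by 0.07 between MDSC and RB. A dimmer second probe set of Mrpl10 gave −0.05 and 0.39 for these, and for MDSC minus GFW it gave 0.44 where the brighter one gave −0.13, so the probe sets disagree on MDSC. Mrps12, counterpart of the bacterial protein at the decoding site where streptomycin resistance arises, was higher in MDSC than in RB by 0.60 (adjusted p = 0.00209) and differed by 0.32 between GFE and GFW (adjusted p = 0.0544), a difference that was called in 3 alternatives (each array's median subtracted, without GFE replicate 3, without GFW replicate 3). Mrps30 was higher in GFE than in GFW by 1.17 and in MDSC than in RB by 0.53 (adjusted p = 0.0177). The MDSC minus RB call was lost under full quantile normalization and without MDSC replicate 3 or RB replicate 3 (adjusted p 0.0504 to 0.0822).

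Genes that work with the mitochondrial ribosome were followed as lists, in the order GFE minus GFW and then MDSC minus RB. Among all genes tested, 35.1% were called higher and 31.9% lower in GFE, and 27.4% higher and 20.7% lower in MDSC. Of 3 ribosomal proteins with other symbols, Ptcd3, Gadd45gip1 and Dap3, all were higher in both, by 1.91, 0.80 and 0.37 in GFE. Of 17 translation factors and activators, 14 were higher and 0 lower in GFE (median 1.16), and 11 were higher and 1 lower in MDSC (median 0.58). In GFE the largest of them were Lrpprc, which stabilises mitochondrial messages, with 2.88, Guf1, which was 5.29-fold higher, and the elongation factor Gfm1 with 1.94. In MDSC they were the elongation factor Tsfm with 1.40 and Gfm1 with 1.27, while Oxa1l, which inserts new chains into the inner membrane, was lower (−0.41).

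Of 26 genes for ribosome assembly and RNA modification, 17 were higher and 1 lower in GFE (median 0.54), and 12 were higher and 2 lower in MDSC (median 0.37). The GTPase gene Gtpbp10 was higher in GFE by 2.63, and the helicase gene Ddx28 was lower in both (−1.31 in GFE and −0.73 in MDSC). Of 16 mitochondrial aminoacyl-tRNA synthetases, 10 were higher and 0 lower in GFE (median 0.68), and 6 were higher and 2 lower in MDSC (median 0.12). Yars2 was at least 5.92-fold higher in GFE, and Fars2 was higher in GFE by 1.64 and lower in MDSC (−1.01).

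Of 12 genes for mitochondrial DNA maintenance and transcription, 7 were higher and 3 lower in GFE, and 4 were higher and 3 lower in MDSC. The single-strand binding protein gene Ssbp1 was higher in GFE by 2.15 and the transcription factor gene Tfam by 1.27, while the thymidine kinase gene Tk2 (−1.48) and the polymerase genes Polg and Polg2 (−0.51 and −0.43) were lower. Of 9 tested genes for nuclear regulators, 4 were higher and 3 lower in GFE (median 0.15), and 5 were higher and 0 lower in MDSC (median 0.34). The GFE counts are 44.4% and 33.3%, near the shares of all genes tested. Myc was higher in GFE by 2.82 and in MDSC by 2.23, and Pprc1 by 2.41 and 1.01, while Max, Esrra and Yy1 were lower in GFE (−0.52, −0.49 and −0.37). Nrf1, a known activator of nuclear genes for mitochondrial proteins, was not called in any of the 5 comparisons.

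Of 32 respiratory complex I genes, 24 were higher and 0 lower in GFE (median 0.68), and 19 were higher and 1 lower in MDSC (median 0.39). Of 58 cytosolic ribosomal protein genes, 48 were higher and 2 lower in GFE (median 0.68), and 18 were higher and 2 lower in MDSC (median 0.18). The 18 are 31.0% of this list, near the 27.4% of all genes tested. In GFE the cytosolic genes Rpl6, Rpl10a and Rpl34 were higher by 1.69, 1.69 and 1.66, and in MDSC Rpl10a was lower (−0.26). In MDSC minus GFW, 15 of the 17 translation factors, 28 of the complex I genes and 43 of the cytosolic ribosomal protein genes were higher, and in RB minus GFW 9, 23 and 36. Of all genes tested, 32.3% were called higher in MDSC minus GFW and 25.8% in RB minus GFW. In GFK minus GFW, the genes of these lists that were called were Mpv17l2, known for a role in assembly of the mitochondrial ribosome, and Polg2, both lower in GFK. Mpv17l2 had 8.56, 8.52 and 8.31 on GFK arrays, against 8.91, 9.45 and 9.17 on GFW arrays (difference −0.71, adjusted p = 0.0152 by limma), and Polg2 differed by −0.61 (adjusted p = 0.00987). The plot of list medians sets these beside the members and all genes tested.

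**Figure D5:**
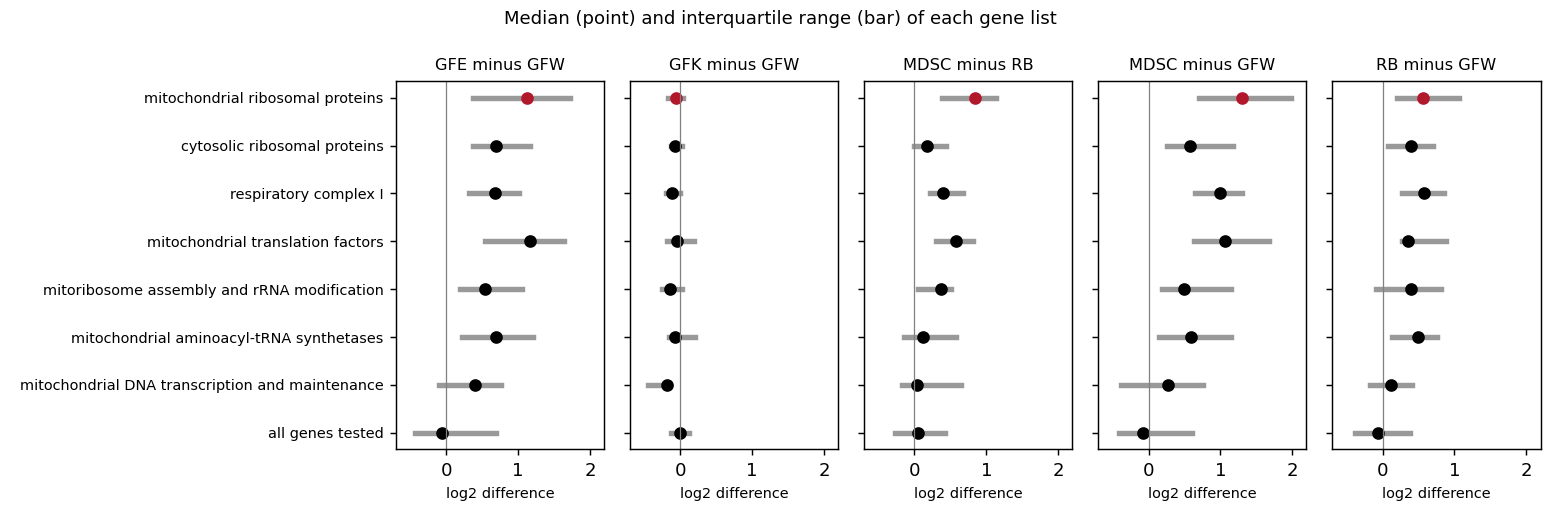
Median log2 difference (points) and middle 50% of genes (bars) of the members, 6 related gene lists and all genes tested, in the 5 comparisons. The median of the members is 1.12 in GFE minus GFW and 0.84 in MDSC minus RB, where that of cytosolic ribosomal proteins is 0.68 and 0.18.

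Promoters of the members were read from RefSeq (build GRCm38.p6), in a window of 250 bases before and 50 after each start, for the 62 members matched by symbol. Mrpl13, Mrpl15, Mrpl19, Mrpl38, Mrpl4, Mrpl54, Mrps28, Mrps34 and Mrps35 were not matched. Motifs known for regulators of genes for mitochondrial proteins were searched on both strands as exact letters. The ETS family letters CCGGAAG, bound by the factor of Gabpa among others, were in 23 member promoters (37.1%), against 17.0% of the 11560 genes tested with a promoter and 9.93% of all 27025 genes. The YY1 letters AAGATGG were in 13 (21.0%), against 7.79% of genes tested and 7.28% of all genes. The NRF1 motif, a palindrome given in capitals in the stretch of Mrpl9, was in 3 (4.84%), against 1.97% and 1.07%, and the E box CACGTG, bound by Myc with Max, was in 5 (8.06%), against 10.99% and 8.09%. No motif contains another, though the ETS and YY1 letters can overlap by their shared AAG. The median GFE minus GFW difference was 0.83 for members with the ETS letters and 1.18 for those without. A match is a description of letters and not of binding.

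The following stretches are the 170 bases before the start, 5′ to 3′ on the strand of the gene, with exact matches of the 4 motifs in capitals. They are shown for Mrps22, with the largest MDSC minus RB difference, for Mrpl3 and Mrpl9 as examples of the ETS and NRF1 letters among members higher in GFE than in GFW (by 1.77 and 0.59), and for Mrpl58, Mrpl52 and Mrps18c, which depart from the family.
Mrps22: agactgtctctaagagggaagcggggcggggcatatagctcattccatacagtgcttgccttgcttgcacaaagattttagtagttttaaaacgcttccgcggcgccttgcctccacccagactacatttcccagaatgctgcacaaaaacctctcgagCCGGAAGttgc
Mrpl3: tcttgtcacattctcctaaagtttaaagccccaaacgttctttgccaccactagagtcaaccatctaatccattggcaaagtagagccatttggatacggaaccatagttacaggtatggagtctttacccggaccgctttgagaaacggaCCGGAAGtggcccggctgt
Mrpl9: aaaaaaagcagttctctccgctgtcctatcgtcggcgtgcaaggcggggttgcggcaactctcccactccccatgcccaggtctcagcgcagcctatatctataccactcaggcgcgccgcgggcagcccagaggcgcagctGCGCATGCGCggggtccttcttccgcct
Mrpl58: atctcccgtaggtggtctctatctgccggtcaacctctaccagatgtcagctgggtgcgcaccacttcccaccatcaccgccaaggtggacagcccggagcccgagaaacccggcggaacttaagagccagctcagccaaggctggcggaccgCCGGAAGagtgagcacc
Mrpl52: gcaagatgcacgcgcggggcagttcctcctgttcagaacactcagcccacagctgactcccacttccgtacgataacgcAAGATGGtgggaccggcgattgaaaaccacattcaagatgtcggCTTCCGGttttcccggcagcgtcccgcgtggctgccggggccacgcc
Mrps18c: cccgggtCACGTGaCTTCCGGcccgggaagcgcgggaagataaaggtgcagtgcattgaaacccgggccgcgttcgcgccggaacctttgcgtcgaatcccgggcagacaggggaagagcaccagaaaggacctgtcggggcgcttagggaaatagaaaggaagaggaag
Mrps22 (chr9:98601680-98601849, minus strand), Mrpl3 (chr9:105053098-105053267, plus strand) and Mrpl58 (chr11:115403582-115403751, plus strand) carry CCGGAAG within the last bases before the start. Mrpl9 (chr3:94443166-94443335, plus strand) carries the NRF1 letters. Mrpl52 (chr14:54426739-54426908, plus strand) carries AAGATGG and, on the other strand, the ETS letters. Mrps18c (chr5:100798589-100798758, plus strand) carries an E box beside the ETS letters of the other strand, further from its start than in the others. Of the other members named for departing from the family, Mrps21 and Mrpl17 have the ETS letters in their windows, and Mrps15, Mrps36, Mrpl24 and Mrpl10 have none of the motifs searched.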

How the data were processed

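RNA of 15 samples was hybridised to single-colour Affymetrix arrays as biotinylated cRNA, with 6 ug total RNA as input, per the labels' protocols. The deposited values are log2 signals made by the authors with RMA in the oligo package, per the submitters' processing notes; tool versions and a build for the array annotation were not given in the sources used here. Of 41345 probe sets, 23521 had 1 symbol, 1814 several and 16010 none, and 23328 of the first matched the RefSeq table of GRCm38.p6, with 0 symbols updated. Genes with several probe sets (1082) took the one with the highest mean. A gene was tested if it lay above its array's 40th percentile (5.34 to 5.58 log2) on 3 arrays or more; 14822 genes passed and 7358 did not. Where the lower group's mean lay under that percentile, the fold is given as a bound.

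A model with 1 mean for each group was fitted to the 15 arrays by limma 3.58.1 (lmFit, eBayes; R 4.3.3), leaving 10 residual degrees of freedom. P-values are 2-sided, adjusted by Benjamini-Hochberg over all genes tested, and called under 0.05. The fit was run on simulated data for GFE minus GFW only, as a check of the code and not of the results given here. Python 3.11.15, numpy 2.4.6, pandas 2.3.3 and matplotlib 3.10.9 did the rest. Alternatives were the array scaling, the filter, the probe set rule, the arrays in the fit, the variance prior, the replicate block and leaving out each array. The number of arrays limits the precision, and 0 pairs of arrays were identical. The samples were treated as unpaired. Deviations of same-numbered arrays correlated between −0.041 and 0.043, which shows no sign of pairing but cannot exclude it.

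Names were drawn, per comparison, from the 8 higher and 8 lower called members with the largest difference and no overlap between groups. Not all of these are named in every comparison. Members of known special role, members called in opposite directions and up to 3 called genes per list and direction were named too. Some members, such as Mrpl52 in RB minus GFW, were named outside this rule. The members and lists were chosen with earlier results of these data known. Monocytes and progenitors of untreated mice were not analysed here.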

Additional observations from a re-analysis of the deposited data

How the results depend on the processing

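No called result changed direction under the alternatives run. With each array's median subtracted, the members' median was 1.25 in GFE minus GFW (large subunit 1.33, 1 member called lower) and 1.42 in MDSC minus GFW (large subunit 1.47, 0 members lower). With full quantile normalization, chosen after seeing the data, the members' median was 0.91 in GFE minus GFW (large subunit 0.996) and 1.16 in MDSC minus GFW (large subunit 1.28, small subunit 1.06), and in RB minus GFW 5 members were lower and the large subunit median was 0.52. With the median of the genes tested subtracted, also chosen after seeing the data, the median of all genes tested moved to −0.38 in GFE minus GFW, −0.34 in MDSC minus GFW, −0.20 in RB minus GFW and −0.07 in MDSC minus RB. The members' medians were then 0.81 in GFE minus GFW (large 0.88, small 0.56, 4 members lower), 1.04 in MDSC minus GFW (large 1.09, small 0.98, 4 lower) and 0.42 in RB minus GFW (large 0.55, 7 lower), and the large subunit median in MDSC minus RB was 0.66. With subunits by structure, the large subunit median in MDSC minus GFW was 1.42. The shifts under either median subtraction follow from the scaling itself. Full quantile normalization is no uniform shift: in MDSC minus GFW the distance of the members' median from that of all genes went from 1.38 to 1.24. Leaving out each array in turn gave 51 to 58 members higher in GFE minus GFW (median 0.97 to 1.15), 48 to 52 in MDSC minus RB, 62 to 65 in MDSC minus GFW (large subunit median 1.32 to 1.47) and 37 to 45 in RB minus GFW; 0 to 1 were lower in GFK minus GFW (1 without GFW replicate 1), and 3 to 5 in RB minus GFW (5 without RB replicate 2). With the replicate number as a block, 56, 51, 64 and 43 members were higher in GFE minus GFW, MDSC minus RB, MDSC minus GFW and RB minus GFW, and 0 in GFK minus GFW. As the numbers are not known to pair the samples, this is a check only. For the named members, 1121 of the values under alternatives stayed called or stayed not called, 10 gained a call and 17 lost one. Changes of sign among values not called were not counted. Called under every alternative were 45 of the 57 members higher in GFE minus GFW, 48 of 52 in MDSC minus RB, 59 of 65 in MDSC minus GFW and 36 of 43 in RB minus GFW. Members dim in the lower group, such as Mrpl45, Mrps27, Mrps14 and Mrps36, have bounds in place of folds there.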
